A study of Mus musculus with 8 samples.

Results

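Eph receptors are receptor tyrosine kinases, and their ligands, the ephrins, are held on the surface of neighbouring cells, so that the pair signals where cells touch and can signal into both cells. Ephrin-A ligands are anchored in the membrane by a lipid, ephrin-B ligands span it, and each class binds mainly the receptors of its own letter, with EphA4 as a receptor for both. In the eye the family is known for graded expression across the retina, which guides retinal axons to their targets, and elsewhere for keeping cell populations apart and for the meeting of tissue folds. The optic fissure is a cleft on the underside of the developing eye, and its margins must join for the eye to close.

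The members described here are 10 named genes of the family. The list is a list of names, drawn up with earlier results of these data known, so counts over it are a description: the receptors Epha3, Epha4, Epha5, Epha7, Ephb2 and Ephb3 and the ephrins Efna2, Efna5, Efnb1 and Efnb2. Probe sets, the groups of array probes that each measure a transcript, were taken as members where the platform annotation gave that gene alone. This gave 29 of the 45101 probe sets, for 9 of the 10 genes, and Ephb2, which matched no such probe set, was not analysed here. After the probe sets of lowest mean signal were left out, 23 of the 29 could be tested, 13 for the 5 receptors and 10 for the 4 ephrins, and each of the 9 genes kept at least 1.

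Each array measured optic fissure tissue cut by laser from frozen sections of wild-type C57BL6/J mouse embryos, with tissue of 3 embryos pooled. The 3 arrays of embryonic day 10.5 (E10.5), the 3 of E11.5 and the 2 of E12.5 carry the labels' letters A to C, and no embryo carried a mutation or received an agent. Arrays of a stage are biological replicates per the labels, which differ on whether the pooled embryos came from the same or from different litters, so p-values measure the spread between these pools. The comparisons between stages ask how expression in the fissure changed over these 3 days.

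Retinal progenitor markers were high at every stage, with a mean log2 signal of 11 genes between 8.65 and 10.95 on every array. Of 12 endothelial markers, 6 were below the signal filter, Pecam1 and Cdh5 among them. Of the 6 above it, Kdr read 5.93 to 7.43 and Eng 6.42 to 6.86 over the arrays, and the rest were dimmer. Array medians lay between 4.37 and 4.48, while the 99th percentile of log2 signal ran from 11.19 to 12.38 at E11.5 and from 12.47 to 12.93 at the other stages. The difference between the 3 prime and 5 prime probe sets of Actb, a sign of RNA quality and amplification, was 6.83 to 6.96 on the log2 scale at E10.5, 5.45 to 6.61 at E11.5 and 6.88 to 7.21 at E12.5. How precise the values are depends on these few arrays. In pooled tissue, fewer cells of a type and less RNA per cell cannot be told apart.

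The results turn on 3 receptors: Epha5 and Epha3, whose signal rose together, and Epha4, whose signal fell. The sequences that lie directly before the start of these genes, 250 bases each from RefSeq (assembly GRCm38.p6, all on the minus strand and printed 5′ to 3′), are shown so that the promoters of the genes that rose can be set beside that of the gene that fell. Capitals mark CG dinucleotides, the sites of DNA methylation, which is often absent where they are dense. The Epha5 stretch is chr5:84417383-84417632, the Epha3 stretch chr16:63864176-63864425 and the Epha4 stretch chr1:77515089-77515338.
Epha5: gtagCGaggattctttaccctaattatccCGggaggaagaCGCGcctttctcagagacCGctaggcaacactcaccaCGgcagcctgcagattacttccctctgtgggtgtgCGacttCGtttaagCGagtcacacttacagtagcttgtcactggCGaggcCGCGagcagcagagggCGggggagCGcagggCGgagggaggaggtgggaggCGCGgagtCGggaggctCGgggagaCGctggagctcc
Epha3: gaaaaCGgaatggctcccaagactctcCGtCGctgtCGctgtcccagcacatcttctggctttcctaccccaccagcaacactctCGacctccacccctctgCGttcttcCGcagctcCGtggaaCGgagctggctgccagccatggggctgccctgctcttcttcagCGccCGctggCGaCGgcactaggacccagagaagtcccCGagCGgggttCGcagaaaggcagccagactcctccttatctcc
Epha4: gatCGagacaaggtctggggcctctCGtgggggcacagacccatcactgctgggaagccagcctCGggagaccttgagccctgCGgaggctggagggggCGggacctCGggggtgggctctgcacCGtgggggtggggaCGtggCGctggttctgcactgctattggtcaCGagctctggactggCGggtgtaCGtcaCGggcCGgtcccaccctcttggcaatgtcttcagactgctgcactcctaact

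All 3 stretches are rich in G and C. The Epha5 stretch has a GC content of 62.4% and 20 CG dinucleotides, that of Epha3 62.8% and 16, and that of Epha4 66.0% and 14, against medians of 52.0% and 6 over 27025 promoters of the same length. The motifs CANNTG (the E-box, bound by many neurogenic factors), TATAAA and CCAAT were searched on both strands. CANNTG occurs in 66.0% of all those promoters, and in 3 of the 10 members' stretches (Ephb2, Ephb3 and Efnb2), with no match in those of Epha5, Epha3 and Epha4. TATAAA, in 13.0% of all promoters, is in none of these 3 stretches, and CCAAT, in 34.5% of all, is in that of Epha4 once. The stretches of the rising and of the falling receptors thus hold similar shares of G and C.

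Between E10.5 and E12.5, Epha5 signal rose 13.2-fold, Epha3 signal rose from close to the filter level (7.66-fold as measured), and Epha4 signal fell 2.97-fold, each on the gene's main probe set, the tested one with the highest mean signal. The signals of Epha7, Ephb3 and the 4 ephrins did not pass the test in any stage comparison. In the E12.5 to E10.5 comparison 6 of 23 member probe sets (26.1%) were called by limma at an adjusted p below 0.05, 4 higher and 2 lower, against 3.08% higher and 1.56% lower of all 27022 tested probe sets. From E11.5 to E12.5, 4 of 23 (17.4%) were called, all higher, against 1.62% higher and 0.2% lower of all. From E10.5 to E11.5, 0 of 23 were called by limma, against 0.126% of all probe sets in either direction, and 4 of 23 (17.4%) had an unadjusted p below 0.05, as did 19.4% of all. Over the 3 stages together, 4 of 23, of Epha5 and Epha3, were called by the F test against 2.92% of all, and no Epha4 probe set was. All called member probe sets belonged to receptors, 6 of 13 (46.2%) from E10.5 to E12.5 and 4 of 13 (30.8%) from E11.5 to E12.5. They measured 3 and 2 of the 9 genes, and probe sets of the same gene are not independent of each other. Of the 10 ephrin probe sets 0 were called in the 3 comparisons by limma, with 1, 0 and 1 at an unadjusted p below 0.05 in E11.5 against E10.5, E12.5 against E11.5 and E12.5 against E10.5, where 19.4%, 16.7% and 22.2% of all probe sets had such a p. Whether receptors and ephrins differ in this was not tested.

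The members as a group did not shift one way. The median log2 difference of the 9 main probe sets was -0.36 from E10.5 to E11.5, 0.09 from E11.5 to E12.5 and -0.29 from E10.5 to E12.5, beside medians of -0.18, 0.10 and -0.08 over all tested probe sets.

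**Figure D1:**
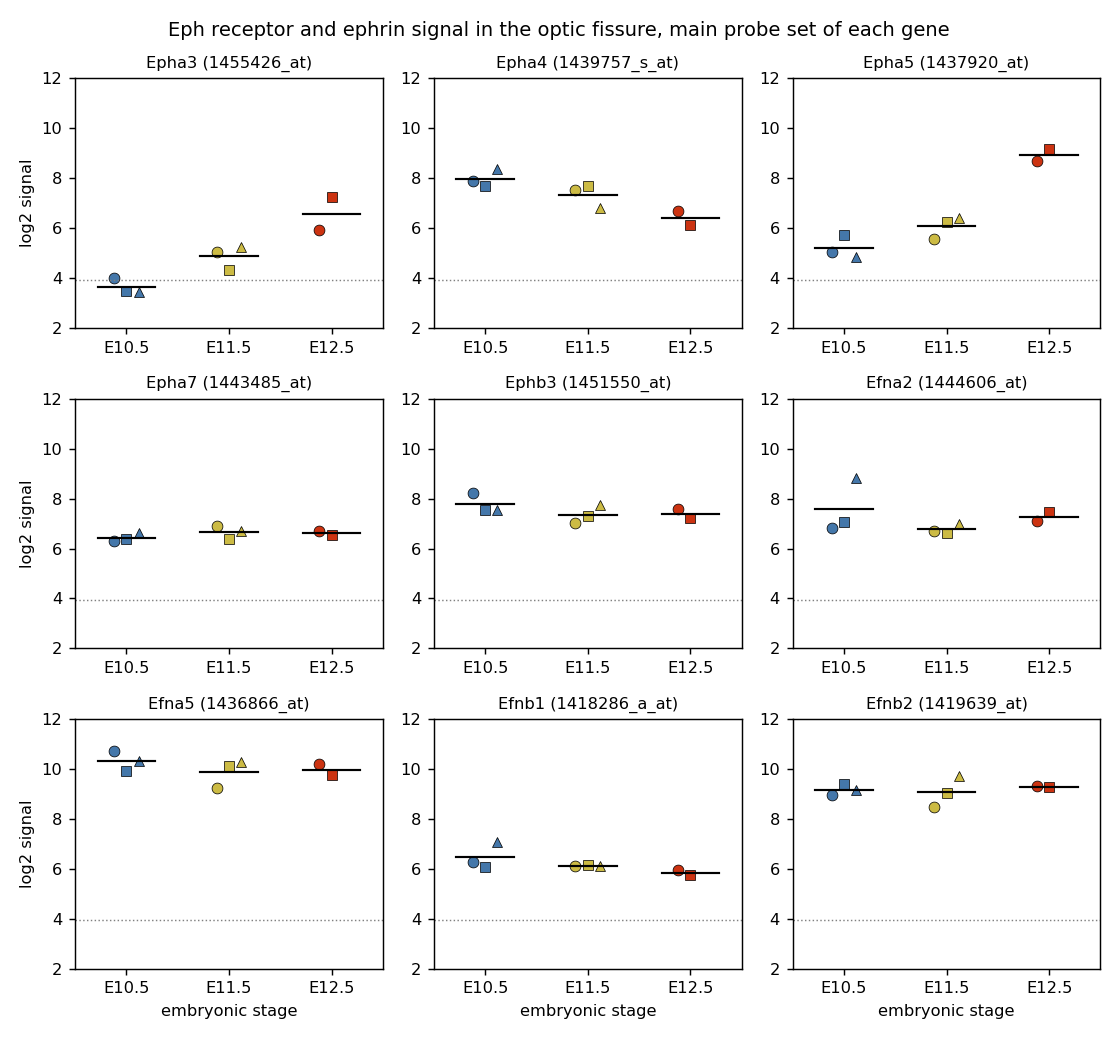
Log2 signal of the main probe set of each of the 9 measured members (vertical axis) at the 3 embryonic stages (horizontal axis); points are arrays (circle A, square B, triangle C), bars are stage means, and the dotted line is the mean signal of 3.94 below which probe sets were left out. Epha5 and Epha3 are highest on both E12.5 arrays, Epha4 is lowest there, and the other 6 genes overlap between E10.5 and E11.5.

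Epha5 encodes a receptor for ephrin-A ligands that is known for its gradient across the retina and its part in the mapping of retinal axons. Its main probe set, 1437920_at, read log2 5.04, 5.74 and 4.86 on the E10.5 arrays A to C, 5.56, 6.26 and 6.40 on the E11.5 arrays A to C, and 8.71 and 9.17 on the E12.5 arrays A and B. Both E12.5 arrays lay above every earlier array, whereas the values of E10.5 and E11.5 overlapped. The stage means were 5.21 ± 0.47 (SD, n = 3), 6.07 ± 0.45 (SD, n = 3) and 8.94 ± 0.33 (SD, n = 2). From E11.5 to E12.5 the log2 signal rose by 2.86 (SE 0.34, 7.27-fold, adjusted p 0.00113), and from E10.5 to E12.5 by 3.72 (SE 0.34, 95% interval 2.98 to 4.46, adjusted p 0.000118). The earlier step, from E10.5 to E11.5, was 0.86 (SE 0.30, adjusted p 0.181) and did not pass the test. The later step exceeded the earlier one by 2.0 (SE 0.54, adjusted p 0.204), so the difference between the steps was not called; over all members 0 of 23 were called in this comparison by limma, with 3 of 23 at an unadjusted p below 0.05, all of Epha5, against 0.178% of all probe sets called higher and 16.6% with such a p.

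Other Epha5 probe sets moved with the main one. 1435286_at read 5.06, 5.40 and 4.74 at E10.5, 5.12, 5.83 and 6.05 at E11.5, and 7.88 and 8.65 at E12.5, and 1444690_at read 3.45, 4.12 and 3.93, then 4.25, 4.31 and 4.50, then 6.76 and 7.59. On both, the 2 E12.5 arrays lay above all 6 earlier arrays. They rose by 2.60 (adjusted p 0.00219) and 2.82 (adjusted p 0.000345) from E11.5 to E12.5, and from E10.5 to E12.5 by 3.20 (adjusted p 0.000342) and 3.34 (adjusted p 6.34e-05). The fourth tested probe set, 1420557_at, had a smaller difference of 0.77 between E10.5 and E12.5 (SE 0.23, adjusted p 0.08) and was not called. The call of the main probe set between E10.5 and E12.5 held under every alternative processing and with every array left out in turn, with differences of 2.44 to 3.99, the lowest with 64 added to the linear signal before the log. Those between E11.5 and E12.5 were lost when the Actb 3 prime to 5 prime difference entered the model, where the main probe set gave 2.26 (adjusted p 0.181); over all probe sets that model called 23 in place of 492.

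Epha3, another ephrin-A receptor with a high affinity for ephrin-A5, was measured by probe set 1455426_at. It read log2 4.01, 3.5 and 3.44 at E10.5, 5.04, 4.31 and 5.24 at E11.5, and 5.92 and 7.25 at E12.5. The 3 stages did not overlap and followed each other upward, although the E10.5 values lay near the signal below which probe sets were left out (3.94). Stage means were 3.65 ± 0.31 (SD, n = 3), 4.86 ± 0.49 (SD, n = 3) and 6.59 ± 0.95 (SD, n = 2). From E10.5 to E12.5 the signal rose by 2.94 (SE 0.38, 95% interval 2.11 to 3.76, 7.66-fold, adjusted p 0.00132). With E10.5 values this near the lower end of the range the fold is uncertain. The call held under the 10 alternatives that tested this probe set and with any array left out, with differences of 1.10 to 3.61, the lowest with 64 added to the linear signal, which shrinks differences of dim probe sets. The filter on the lowest 60% left it untested. The mean without the E12.5 arrays was 4.26, above the filter, so the probe set did not pass it through that stage alone.

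The steps between neighbouring stages were less certain for Epha3. The first, 1.21 (SE 0.34, adjusted p 0.155), did not pass the test. The second, 1.72 (SE 0.38, 3.3-fold, adjusted p 0.0434), passed it, but 7 of the 10 alternatives that tested it ended the call, quantile normalization (1.60, adjusted p 0.0801) and the Actb term (1.57, adjusted p 1) among them. It was also lost without E10.5 array B (1.72, adjusted p 0.0884), without E11.5 array A (1.81, adjusted p 0.132), without E11.5 array B (1.45, adjusted p 0.16) and without E12.5 array B (1.05, adjusted p 0.646). The other 3 Epha3 probe sets were below the filter, between 2.67 and 3.77 on all arrays, and were not tested.

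Epha4, which binds ephrins of both classes, moved the other way. Its main probe set, 1439757_s_at, whose suffix marks probes that can also match other transcripts, read log2 7.88, 7.67 and 8.38 at E10.5, 7.51, 7.67 and 6.81 at E11.5, and 6.70 and 6.11 at E12.5. Both E12.5 arrays lay below every earlier array, and the E10.5 and E11.5 arrays met at 7.67. Stage means were 7.98 ± 0.36 (SD, n = 3), 7.33 ± 0.46 (SD, n = 3) and 6.41 ± 0.42 (SD, n = 2). The signal fell by 1.57 on the log2 scale from E10.5 to E12.5 (SE 0.34, 2.97-fold, adjusted p 0.0249), through steps of -0.65 (adjusted p 0.264) and -0.92 (adjusted p 0.203) that did not pass the test singly. The F test over the 3 stages gave an adjusted p of 0.0607 and did not call it. A second probe set without that suffix, 1421929_at, read 7.79, 6.79 and 7.51, then 6.95, 7.10 and 6.25, then 5.90 and 5.46, and fell by 1.68 (SE 0.35, 3.21-fold, adjusted p 0.0214; F test adjusted p 0.0531). For 1429021_at the difference from E10.5 to E12.5 was -0.87 (adjusted p 0.0559) and for 1421928_at -0.47 (adjusted p 0.211), so neither was called, and the fifth probe set was below the filter.

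The Epha4 call rests on both E12.5 arrays. Without E12.5 array A the main probe set gave -1.87 (adjusted p 0.0503) and without E12.5 array B -1.27 (adjusted p 0.372). It was also lost when only E10.5 and E12.5 arrays entered the model (-1.57, adjusted p 0.0561). For 1421929_at the call was lost without E10.5 array A (-1.47, adjusted p 0.0537), without E12.5 array A (-1.90, adjusted p 0.0576), without E12.5 array B (-1.46, adjusted p 0.29) and with those stages alone (-1.68, adjusted p 0.0559).

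**Figure D2:**
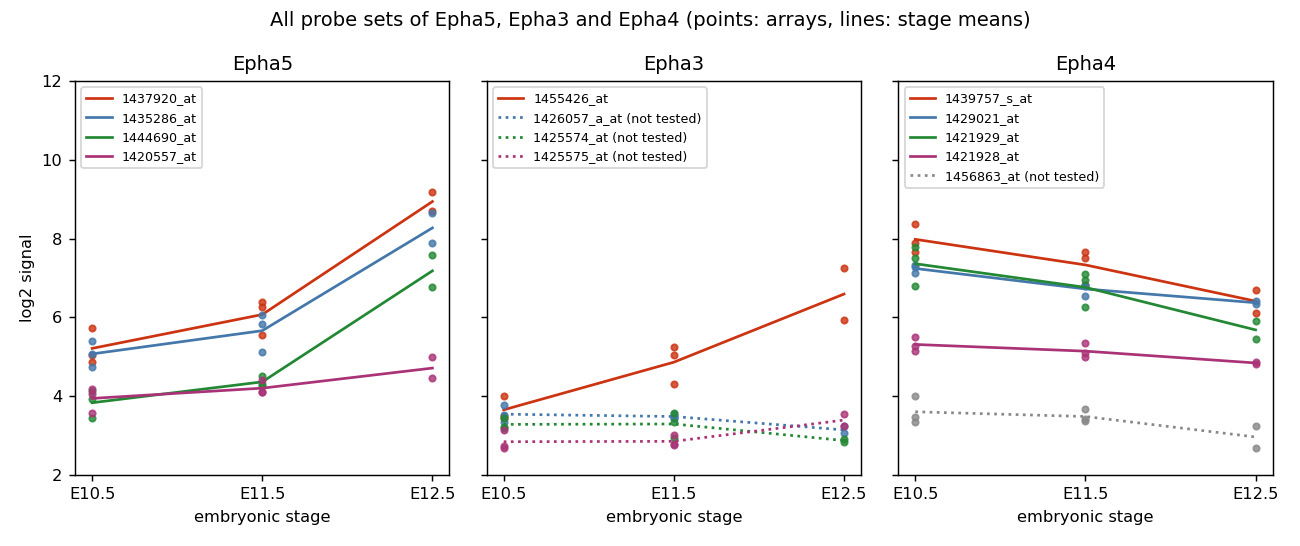
Log2 signal (vertical axis) of every probe set of Epha5, Epha3 and Epha4 at the 3 stages (horizontal axis); points are arrays, lines join stage means, and dotted lines are probe sets below the filter that were not tested. 3 Epha5 probe sets climb between E11.5 and E12.5, the tested Epha3 probe set climbs over both steps, and the tested Epha4 probe sets descend, 2 of them to a called difference from E10.5 to E12.5.

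The remaining receptors gave no call. Epha7 is an ephrin-A receptor known, with ephrin-A5, for its part in closing the neural tube. Its probe set 1443485_at read log2 6.29, 6.40 and 6.61 at E10.5, 6.92, 6.38 and 6.70 at E11.5, and 6.69 and 6.53 at E12.5. The stages overlapped, and the difference from E10.5 to E12.5 was 0.18 with a 95% interval of -0.37 to 0.72. Its other tested probe sets differed by 0.07 and -0.31.

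Ephb3 is an ephrin-B receptor of the kind found in ventral retina. Its probe set 1451550_at read 8.23, 7.55 and 7.55 at E10.5, 7.03, 7.31 and 7.74 at E11.5, and 7.60 and 7.21 at E12.5. Here too the stages overlapped, with a difference of -0.37 (95% interval -1.06 to 0.32, adjusted p 0.52) from E10.5 to E12.5.

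Among the ephrin-A ligands, Efna5, which is known for repelling retinal axons in their target, read log2 10.73, 9.93 and 10.32 at E10.5, 9.25, 10.11 and 10.30 at E11.5, and 10.19 and 9.77 at E12.5 on probe set 1436866_at. On that probe set it was bright at every stage, and the stages overlapped, with a difference of -0.35 (95% interval -1.19 to 0.50, adjusted p 0.631) from E10.5 to E12.5. The other Efna5 probe set, 1421796_a_at, read 3.25 to 3.62 on all arrays, below the filter, and was not tested. Efna2, a ligand of the same class and function, read 6.83, 7.07 and 8.84 at E10.5, 6.72, 6.62 and 7.0 at E11.5, and 7.10 and 7.46 at E12.5 on probe set 1444606_at. E10.5 array C stood apart from the other arrays, and the E12.5 minus E10.5 difference of -0.29 (95% interval -1.35 to 0.76) became 0.34 without it. The dimmer Efna2 probe set 1417521_at did not show that high array, reading 4.50 on it against 4.89 and 4.60 on E10.5 arrays A and B.

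Of the ephrin-B ligands, Efnb2, known as a marker of arteries and of dorsal retina, read 8.95, 9.39 and 9.15 at E10.5, 8.47, 9.03 and 9.74 at E11.5, and 9.34 and 9.27 at E12.5 on probe set 1419639_at. The stages overlapped, with a difference of 0.14 (95% interval -0.65 to 0.94) from E10.5 to E12.5, and its other 3 tested probe sets differed by -0.08, 0.09 and -0.04. Efnb1, an X-linked ephrin known for its role in forming boundaries between cell populations of the face, came nearest to a difference. Its probe set 1418286_a_at read 6.27, 6.08 and 7.07 at E10.5, 6.11, 6.14 and 6.11 at E11.5, and 5.94 and 5.74 at E12.5. Both E12.5 arrays lay below every earlier array, by a small margin against a spread in E10.5 that array C widened. The difference from E10.5 to E12.5 was -0.63 (95% interval -1.27 to 0.00, adjusted p 0.227), and those of its other tested probe sets were -0.63 (adjusted p 0.332) and -0.53 (adjusted p 0.2). A p above the threshold does not show that these 6 genes were the same at all stages, and their intervals give the sizes the data allow.

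**Figure D3:**
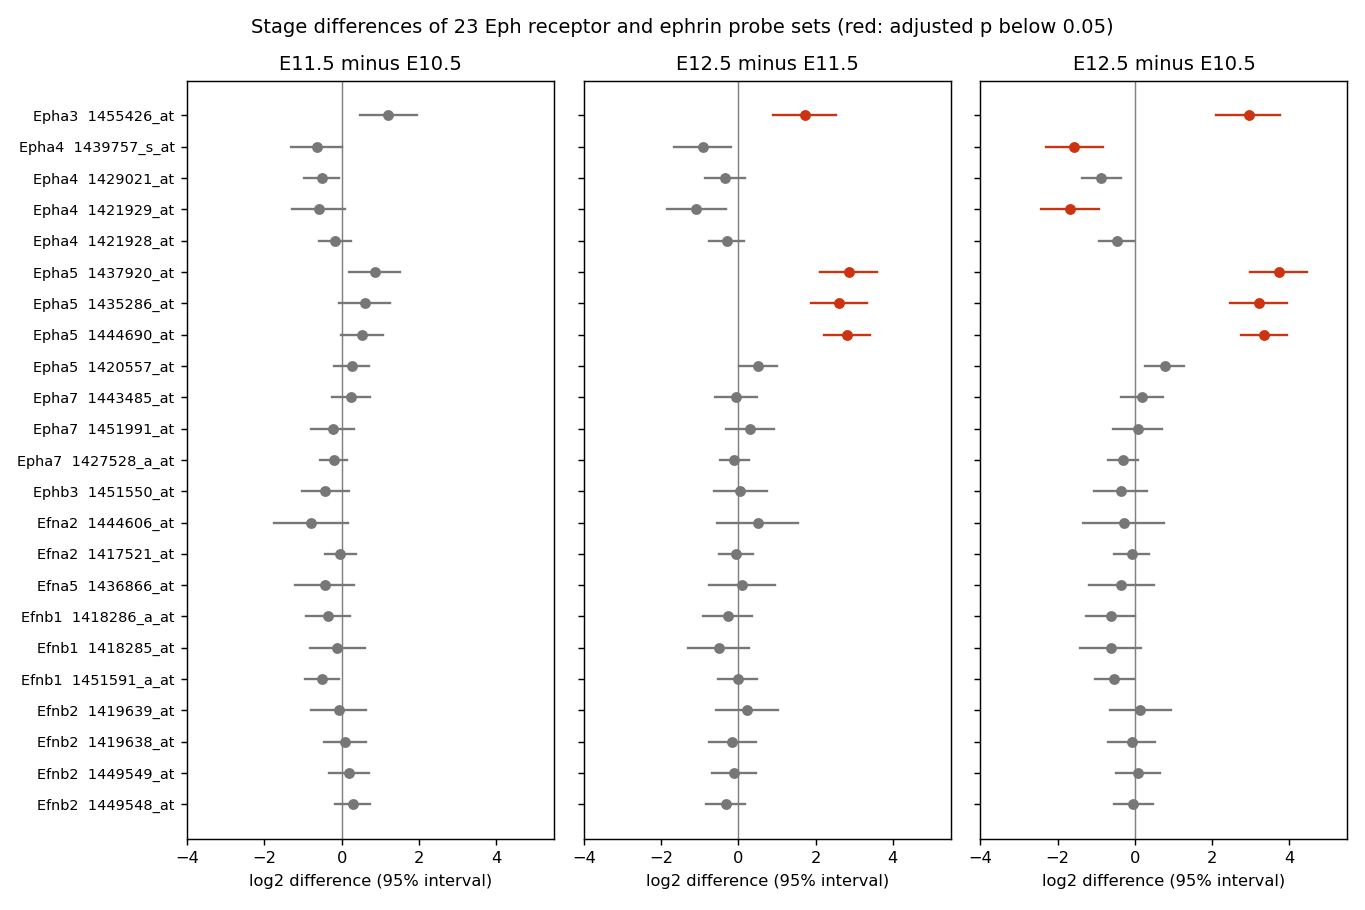
Difference in log2 signal between stages (horizontal axis, with 95% intervals) for the 23 tested member probe sets (vertical axis), red where the adjusted p was below 0.05. Red points are 4 of Epha5 and Epha3 from E11.5 to E12.5, and those 4 with 2 of Epha4 from E10.5 to E12.5, while no ephrin probe set is red.

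Of the 12 other genes of the family, 9 had a tested probe set and Epha6, Ephb6 and Efna4 were below the filter. Of their 10 tested probe sets, 1 (10%) was called higher from E11.5 to E12.5, against 1.62% of all tested probe sets. From E10.5 to E11.5, 0 were called, against 0.126% of all. From E10.5 to E12.5, 0 were called, against 3.08% higher and 1.56% lower of all. The called probe set was that of Ephb1, an ephrin-B receptor known for steering retinal axons that stay on their own side of the brain. Its probe set 1455188_at read log2 5.31, 5.78 and 6.84 at E10.5, 4.78, 4.91 and 5.12 at E11.5, and 6.50 and 8.12 at E12.5. The E12.5 arrays lay above all E11.5 arrays and overlapped the range of E10.5. It rose by 2.37 from E11.5 to E12.5 (SE 0.48, 5.18-fold, adjusted p 0.0301), and from E10.5 to E12.5 the difference was 1.33 (adjusted p 0.13). The call was lost without E10.5 array B (2.37, adjusted p 0.0653), without E11.5 array A (2.29, adjusted p 0.135), without E11.5 array B (2.36, adjusted p 0.0989) and without E12.5 array B (1.56, adjusted p 0.474), and with quantile normalization (2.26, adjusted p 0.0548) and the Actb term (1.86, adjusted p 1) among other settings. Ephb4, the partner of Efnb2 on veins, had the next largest difference, -0.81 from E10.5 to E12.5 (adjusted p 0.0848), and was not called.

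Epha5 and Epha3 were highest on the 2 arrays where the mean of markers of newborn retinal neurons was high. The mean log2 signal of 13 such markers, all above the filter, was 3.97 to 4.11 at E10.5 and 3.80 to 4.01 at E11.5. At E12.5 it was 6.77 on array A and 9.37 on array B. The markers were uneven on array A, where Atoh7, Insm1, Neurog2 and Neurod1 read 8.75 to 11.46. The others read 3.76 (Nefm) to 7.24 (Nefl) there, and Nefm stayed within its earlier range of 3.15 to 3.89. On array B all 13 read between 6.22 (Elavl3) and 12.72 (Nefl). Between the E12.5 arrays, B exceeded A by 1.34 in Epha3, 1.62 in Ephb1 and 0.46 in Epha5, and by a median of 2.73 in the neuron markers. In Epha4 the same difference was -0.59, and its median over all tested probe sets was -0.05. Ephb1 did not follow the markers on every array, with 6.84 on E10.5 array C, where their mean was 4.11, and 6.50 on E12.5 array A. Nor did Epha3, which read 3.44 to 4.01 at E10.5 and 4.31 to 5.24 at E11.5, while the marker mean did not rise. The Epha5 difference in that step was 0.86, and neither receptor was called there. The mean of the retinal progenitor markers was 9.64 to 9.97 at E10.5, 8.65 to 9.45 at E11.5 and 10.86 to 10.95 at E12.5. From E10.5 to E12.5, 4 of their 17 probe sets (23.5%), in 3 of the 11 genes, were called higher, against 3.08% of all. Hes5 read 11.03 and 11.89 at E12.5 against 5.93 to 7.60 at E10.5, and Rax 7.45 and 7.02 against 7.20 to 8.14. Pigment epithelium markers ran from 7.11 to 8.04 at E10.5, from 8.0 to 9.27 at E11.5 and from 8.20 to 8.75 at E12.5. Of their 19 probe sets 9 (47.4%) were called from E10.5 to E12.5, 7 higher and 2 lower. The shares of all tested probe sets were 3.08% higher and 1.56% lower. Markers of the mesenchyme around the eye ran from 4.40 to 4.60 at E10.5, from 5.62 to 6.42 at E11.5 and from 5.52 to 6.08 at E12.5, and those of endothelium, with 6 of 12 below the filter, from 4.29 to 4.59 on all arrays. The part of these cell types in the receptor differences was not tested.

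**Figure D4:**
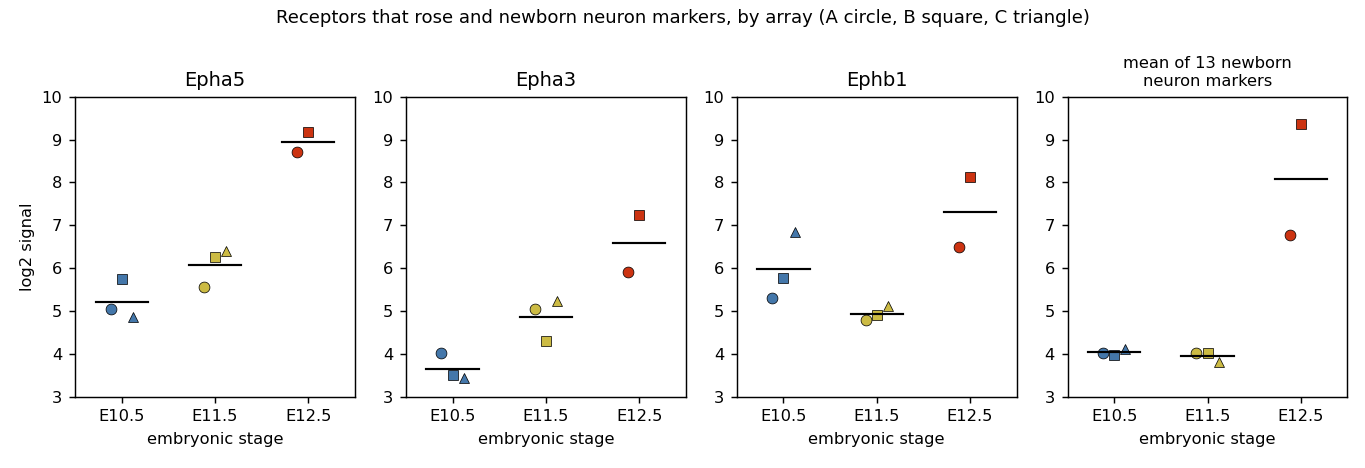
Log2 signal (vertical axis) of the main probe sets of Epha5, Epha3 and Ephb1 and the mean of 13 newborn neuron markers at the 3 stages (horizontal axis); points are arrays, bars are stage means. The marker mean stays at or below 4.11 up to E11.5 and reaches 6.77 on E12.5 array A and 9.37 on array B, and Epha3 and Ephb1 are higher on array B than on array A by 1.34 and 1.62.

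The genes that carry Eph and ephrin signals into the cell, such as the adaptors, kinases and regulators that act on the cytoskeleton, were described from a list of 42, of which 40 had tested probe sets, 97 in all. From E11.5 to E12.5, 4 of these 97 (4.12%) were called, all higher, in 3 genes: Kalrn, known for shaping dendrites, Fyn, a kinase recruited by ephrin-B and ephrin-A clusters, and Vav3, an exchange factor of the family that acts below Eph receptors. From E10.5 to E12.5, 5 of 97 (5.15%) were called, all higher, in Kalrn, Vav3, Chn2, which is a chimaerin, and Pik3r1, a regulatory subunit of PI3 kinase. From E10.5 to E11.5, 0 of 97 were called by limma, against 0.126% of all probe sets in either direction. In that step 13 of 97 (13.4%) had an unadjusted p below 0.05, against 19.4% of all. The shares called from E11.5 to E12.5 and from E10.5 to E12.5 compare with 1.62% and 3.08% of all probe sets called higher.

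Kalrn rose by 2.55 (SE 0.40, adjusted p 0.00465) on probe set 1440970_at from E10.5 to E12.5 and by 2.18 (adjusted p 0.00856) on 1448023_at. Its other tested probe sets, with the brightest, 1436066_at, among them, differed by -0.04 to 0.46 and were not called. Vav3 rose by 1.66 (SE 0.25, adjusted p 0.00358) on 1448600_s_at, a call lost without E12.5 array B (1.49). The suffix of that probe set marks probes that can also match other transcripts. The other tested Vav3 probe set, 1417123_at, differed by -0.11 from E10.5 to E12.5 (adjusted p 0.738) and by -0.16 from E11.5 to E12.5 (adjusted p 0.688). Chn2 rose by 1.62 (adjusted p 0.0237) on 1428573_at and Pik3r1 by 1.23 (adjusted p 0.0271) on 1438682_at. No other probe set of either gene was called. The Chn2 call was lost without E10.5 array A (1.34, adjusted p 0.0553) and without E12.5 array B (1.12, adjusted p 0.339). That of Pik3r1 was lost without E10.5 array A (1.21, adjusted p 0.0575), E10.5 array B (1.19, adjusted p 0.0517), E11.5 array B (1.23, adjusted p 0.0535) and E12.5 array B (0.83, adjusted p 0.438). From E11.5 to E12.5 Fyn rose by 1.74 (SE 0.35, adjusted p 0.0301) on 1448765_at, its only called probe set. That call was lost without E10.5 array B (1.74, adjusted p 0.0504), E11.5 array A (1.57, adjusted p 0.129), E11.5 array B (1.77, adjusted p 0.107) and E12.5 array B (1.36). In the same step Kalrn rose by 2.16 (adjusted p 0.0191) on 1440970_at, lost without E11.5 array A (2.11, adjusted p 0.0984) and E12.5 array B (1.26, adjusted p 0.134). Its 1448023_at rose by 1.79 (adjusted p 0.0379) and Vav3 by 1.14 (adjusted p 0.0425), and these calls were lost in 6 and 7 of the 8 fits that leave out 1 array (all but E10.5 array C and E12.5 array A for Kalrn, all but E10.5 array C for Vav3), with adjusted p of up to 0.386 and 0.625, both without E12.5 array B. Of the 11 other settings, 7 ended that Kalrn call and 6 that of Vav3, quantile normalization (1.69, adjusted p 0.0638 and 0.97, adjusted p 0.127) and the replicate block (1.76, adjusted p 0.0542 and 1.05, adjusted p 0.134) among them, and 2 each ended those of 1440970_at and Fyn. The calls of Chn2 and Pik3r1 were also lost when E11.5 arrays were left out of the model (adjusted p 0.0666 and 0.0777).

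Genes that give retinal cells their position, and among them transcription factors upstream of graded Eph and ephrin expression, were described from a list of 17, of which 15 had 24 tested probe sets. Here 10 of 24 (41.7%) were called from E10.5 to E12.5, 9 lower and 1 higher, against 1.56% lower and 3.08% higher of all probe sets. Of the lower ones 6 measured 1 gene, Nr2f2, which encodes a nuclear receptor. Its main probe set, 1416159_at, fell by 2.53 on the log2 scale (SE 0.30, 5.76-fold, adjusted p 0.000748). Foxd1, the forkhead factor of temporal retina, where EphA receptors are high, fell by 2.36 (SE 0.45, 5.15-fold, adjusted p 0.0138), a call lost without E12.5 array B (-1.90, adjusted p 0.257) and with E10.5 and E12.5 arrays alone (-2.36, adjusted p 0.0512). Bmp2, a growth factor, rose by 1.68 (SE 0.28, adjusted p 0.00732), lost without E12.5 array A (1.51, adjusted p 0.0599). Vax1, a homeodomain factor of ventral eye, fell by 1.5 (adjusted p 0.032) on 1421774_at, and Bmp4, a dorsal signal, fell by 0.91 (adjusted p 0.0375); leaving out either E12.5 array ended both calls, with adjusted p of 0.202 and 0.2 for Vax1 and 0.178 and 0.305 for Bmp4. The brighter Vax1 probe set, 1457396_at, was tested and not called. The Vax1 call on 1421774_at was also lost without E10.5 array A (adjusted p 0.0699), E10.5 array C (0.0558) or E11.5 array B (0.0611). That of Bmp4 was lost without E11.5 array A (0.0528), B (0.0651) or C (0.052). Of the other settings, 3 of 11 ended the Vax1 call (the Actb term, the replicate block and these stages alone) and 7 of 10 that of Bmp4, which was -0.19 (adjusted p 0.0699) with 64 added to the signal. From E10.5 to E11.5, 1 of 24 was called, against 0.126% of all in either direction, and from E11.5 to E12.5, 2 of 24, against 0.2% of all called lower; all were of Nr2f2 and lower. Leaving out 1 array ended the first call in 7 of 8 fits (adjusted p up to 0.2, without E11.5 array B) and the others in 3 and 5 of 8 (up to 0.41 and 0.438, without E12.5 array B).

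The 5 genes whose pattern was most like that of Epha5 over the 8 arrays, out of 22627 tested probe sets of other single genes, were Itgb8 (Pearson r 0.994), which encodes an integrin subunit, Psd3 (0.993), Chm (0.993), Pdgfd (0.992) and Ulk2 (0.990). Their probe sets were 1436223_at, 1418749_at, 1439824_at, 1456532_at and 1417847_at. Itgb8 had stage means of 7.27, 8.02 and 9.92. These correlations describe the 8 arrays, which share their stages, their amplification and their normalization, and say nothing about a shared function.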

How the data were processed

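The deposited table holds 1 log2 value per probe set and array, and per the labels RNA was amplified by repeated in vitro transcription, which favours 3 prime ends. The submitters' processing notes name GCOS 1.4. The summarization of probes and the normalization of arrays are not given in the sources used here; no detection calls were used.

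From these values, 64 control probe sets and the lowest 40% by mean log2 signal (below 3.94) were left out, leaving 27022. Symbols are those of the 2016 platform annotation, in which 34958 probe sets had 1 symbol, 932 had several and 9211 none, and 34754 of the first matched RefSeq (GRCm38.p6), which also gave the promoter sequences of all 10 members. Stage effects on the kept values were estimated by limma 3.58.1 (R 4.3.3) from 1 model of stage over all 8 arrays (5 residual degrees of freedom), empirical Bayes moderation with a trend, and two-sided p-values adjusted by Benjamini-Hochberg over the 27022 probe sets at a threshold of 0.05. The fit was run on simulated data with independent noise and no array effects, so that run does not cover differences in quality between arrays.

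Per-array values are given for each member's brightest kept probe set. Of the partner and position lists, called genes are named, at most 6 per comparison and list by smallest p. The members and lists were chosen with earlier results of these data known, and counts over them are descriptions. Alternatives covered normalization, added signal, filters, moderation, array weights, the stages fitted, a replicate block, an Actb covariate and leaving out each array. The comparison of the later with the earlier step was added after seeing the data. Letters A to C were not treated as pairs. Deviations of same-letter arrays from the stage means correlated between -0.39 and 0.13, and those of different letters between -0.15 and 0.41. With 2 arrays at E12.5 their deviations mirror each other, so these correlations cannot settle whether arrays were paired.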

Additional observations from a re-analysis of the deposited data

How the results depend on the processing

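The counts of called member probe sets, 0 from E10.5 to E11.5, 4 from E11.5 to E12.5, 6 from E10.5 to E12.5 and 4 over all stages, stayed within 1.5 times under most settings. A filter on the lowest 60% left 2 from E11.5 to E12.5, since it dropped the Epha3 probe set and 1 of Epha5 from the test, and the Actb term left 0. Array weights gave 2, 10 and 10 from E10.5 to E11.5, from E11.5 to E12.5 and over all stages, but that fit did not converge and gave E11.5 array B a weight of 218 against at most 1.2 for any other. With 1 array left out the counts were 0, 3 to 4, 4 to 7 and 4 to 6. With the replicate block, which adds the letters to the model, they were 0, 3, 5 and 4. Over all probe sets the block gave 5, 280, 531 and 351 in place of 34, 492, 1255 and 788. It ended the E11.5 to E12.5 call of Epha3 (1.76, adjusted p 0.123) and the E10.5 to E12.5 call of Epha4 (-1.60, adjusted p 0.0841). Without E12.5 array B the counts over all probe sets were 14, 114, 209 and 189, array weights gave 5017, 12520, 3371 and 14230, and the Actb term 12, 23, 937 and 442. Adding 64 to the signal left 0 calls from E10.5 to E11.5, and fitting without the trend left 6.

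Of the stage differences of the members' main probe sets, 462 alternative values kept direction and side of the threshold, 16 lost a call, 3 gained one and 29 changed sign, all of the last being differences that were never called. Most of the 462 were also of differences never called, so they say little about how stable the calls were. The 16 losses were of Epha3 and Epha5 from E11.5 to E12.5 and of Epha4 from E10.5 to E12.5. From E10.5 to E11.5, Epha7 became -0.01 with array weights, Efna5 0.23 with quantile normalization and 0.16 with the Actb term, and Efnb2 0.39, 0.01 and 0.53 with quantile normalization, median centring and the Actb term, and -0.42 to 0.22 with an array left out. From E11.5 to E12.5, Epha7 became 0.23 with array weights and 0.21 with the Actb term (-0.20 to 0.07 with an array left out). Ephb3 became -0.23, -0.09 and -0.33 with quantile normalization, median centring and the Actb term (-0.15 to 0.24). Efna5 became -0.44, -0.04, -0.13 and -0.61 with quantile normalization, median centring, array weights and the Actb term (-0.22 to 0.31), and Efnb2 -0.22 with quantile normalization and -0.48 with the Actb term (-0.08 to 0.56). From E10.5 to E12.5, Efna2 became 0.05 with array weights and 0.08 with the replicate block (-0.67 to 0.34). The cause was not tested. With 2 or 3 arrays a stage and unknown background, the smallest differences of dim probe sets were not detectable.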
